A study of Mus musculus with 4 samples.

Results

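Enzymes and regulators of sterol and fatty acid synthesis were followed on 4 microarrays of mouse bone marrow cultures. The genes were 30 members fixed by name, chosen with earlier results of these data known. Shares of members set beside shares of all genes are therefore descriptions of a list that these data may have shaped. Each member was read from the brightest probe set that the array annotation gives to that gene alone. That found 29 of the 30 members among 19938 genes: 17 enzymes of sterol synthesis, 6 regulators and carriers of sterols, and 6 enzymes of fatty acid synthesis. Acat2, the thiolase that makes acetoacetyl-CoA in the cytosol, was not analysed here.

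Bone marrow of Bach1 -/- mice and of Bach1 +/+ mice, all on the B6 background, was grown with 20 ng/ml GM-CSF in medium with 10% serum. GM-CSF, a myeloid growth factor, turns such marrow into macrophages and cells of dendritic type. After 6 days each culture received either heme, at 40 µM (a unit that the labels spell µm), or its vehicle of 0.15 M NaCl with 10% NH4OH. The adherent cells were harvested for RNA 24 hours after that. The 4 groups were Bach1 -/- with heme, Bach1 -/- with vehicle, wild type with heme and wild type with vehicle, with 1 array each. How many mice stood behind a culture is not stated in the labels. With 1 array per group there was no replicate to check a difference against, so neither p-values nor errors are printed. The values were linear RMA signals of 35556 probe sets, and their log2 values correlated between arrays with r of 0.975 to 0.981.

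The Bach1 probe set read 204 and 211 in the Bach1 -/- heme and vehicle cultures, and 264 and 212 in the wild-type ones. Its probes may lie outside the deleted stretch, which the sources used here do not settle. The signal is therefore no check of genotype, and the arrays are named as labelled. Hmox1, the heme-degrading enzyme, read 10331 and 9047 in labelled knockout heme and vehicle, against 9881 and 1827 in wild-type heme and vehicle. All 11 measured macrophage markers were at or above the overall median on some array, with signals that ran from C1qa (30.6 to 213) to Lyz2 (9990.3 to 10705). Of 13 dendritic cell and antigen presentation markers, 10 reached that median on some array, among them Itgax (547 to 1340.3) and Cd74 (829 to 3399), while Flt3 (13.3 to 20.5), Zbtb46 (20.3 to 24.3) and Cd209a (16.7 to 21.5) did not.

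Cholesterol is built from acetyl-CoA through mevalonate, isoprenoid diphosphates, squalene and lanosterol. When membranes of the endoplasmic reticulum are poor in sterol, the escort protein Scap carries SREBP precursors (genes Srebf1 and Srebf2) to the Golgi, where they are cut and released to switch on the genes of this pathway. The Insig proteins hold Scap back when sterol is plentiful. The form of SREBP made from Srebf2 acts mainly on sterol genes, and the main form made from Srebf1 on fatty acid genes. Bach1 is a repressor that heme releases from DNA.

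Short motifs, which the choice of members did not use, were counted in their promoters. The table of RefSeq promoters (build GRCm38.p6), each reaching from 250 bases before to 50 bases after a gene's start, held 24 of the 30 members, and the first entry of each gene was searched on both strands. CCAAT, the box bound by NF-Y, a partner of SREBP, stood in 19 of 24 member promoters (79.2%), against 37.9% of all 27025 promoters. GGGCGG, the Sp1 box, stood in 18 member promoters (75%), against 35.9% of all promoters. The sterol regulatory element in the form TCACNCCAC was found in 1 member promoter, that of Hmgcs1, and in 1.22% of all promoters. A looser form, TCACNNCA, which takes in the first and was chosen after that result was seen, stood in 9 of 24 member promoters (37.5%), against 13.8% of all promoters. These 9 were 7 of the 15 sterol enzymes with an entry, together with Insig2 and Srebf2. CACGTG, the E box, stood in 4 member promoters (16.7%) and in 7.24% of all. TGACNNNGC, the letters of an antioxidant element to which Bach1 and NRF2 bind, stood in 2 member promoters (8.33%), Hsd17b7 and Mvk, against 12.5% of all. These shares are descriptions. Sp1 boxes and CCAAT boxes depend on base composition, which was not matched between the members and all promoters.

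The promoters of the 4 sterol enzymes with the lowest mean heme response among those with an entry are printed here, since the heme responses described next were largest there. They are Idi1 (chr13:8885356-8885655, plus strand), Cyp51 (chr5:4104648-4104947, minus strand), Dhcr7 (chr7:143822917-143823216, plus strand, the first of 3 entries) and Hmgcs1 (chr13:119690101-119690400, plus strand). Each runs 5′ to 3′ along its gene, and capitals mark TCACNNCA and CCAAT on either strand (CCAAT reads ATTGG on the other strand).
Idi1: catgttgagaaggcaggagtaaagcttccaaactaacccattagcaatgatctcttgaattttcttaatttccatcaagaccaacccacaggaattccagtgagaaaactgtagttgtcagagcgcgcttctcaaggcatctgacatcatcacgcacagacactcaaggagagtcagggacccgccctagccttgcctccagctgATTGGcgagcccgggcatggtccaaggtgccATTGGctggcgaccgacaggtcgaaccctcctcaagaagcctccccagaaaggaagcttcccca
Cyp51: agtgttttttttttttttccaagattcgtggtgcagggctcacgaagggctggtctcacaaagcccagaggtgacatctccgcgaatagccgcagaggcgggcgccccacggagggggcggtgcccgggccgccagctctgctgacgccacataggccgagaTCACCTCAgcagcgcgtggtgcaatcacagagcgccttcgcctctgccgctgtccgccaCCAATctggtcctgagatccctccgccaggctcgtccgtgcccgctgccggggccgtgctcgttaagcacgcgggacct
Dhcr7: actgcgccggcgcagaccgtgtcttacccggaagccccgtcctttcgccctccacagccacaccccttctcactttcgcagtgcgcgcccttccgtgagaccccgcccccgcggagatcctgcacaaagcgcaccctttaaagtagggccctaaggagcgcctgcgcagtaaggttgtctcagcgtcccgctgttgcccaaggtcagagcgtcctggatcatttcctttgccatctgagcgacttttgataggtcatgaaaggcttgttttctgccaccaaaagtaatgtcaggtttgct
Hmgcs1: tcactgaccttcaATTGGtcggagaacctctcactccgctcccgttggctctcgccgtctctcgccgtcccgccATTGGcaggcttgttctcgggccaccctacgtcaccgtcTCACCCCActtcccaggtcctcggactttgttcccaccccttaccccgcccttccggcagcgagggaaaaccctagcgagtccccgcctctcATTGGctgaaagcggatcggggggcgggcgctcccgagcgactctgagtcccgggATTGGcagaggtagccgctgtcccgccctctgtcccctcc
Hmgcs1 held 1 match to TCACNNCA, beginning 137 bases before the start, and 4 CCAAT boxes. Cyp51 held 1 match, beginning 88 bases before the start, and 1 CCAAT box. Idi1 held 2 CCAAT boxes and no TCACNNCA, and the entry of Dhcr7 held neither, which says only that these letters are not in that window.

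Setting heme against vehicle asks how the members respond to heme, in cells labelled Bach1 knockout and in wild type. Sterol synthesis enzymes were lower with heme in both genotypes. In the labelled knockout 15 of 17 were lower, with a median log2 difference of -0.63 (1.55-fold), and in wild type 17 of 17 were lower, with a median of -0.49 (1.41-fold). Over all genes the medians were -0.02 in the labelled knockout and -0.00 in wild type. Among genes at level, meaning that the brighter array of a pair had a signal of at least 30.96, the overall median, 47.5% were lower with heme in the labelled knockout and 51.3% in wild type. All 17 enzymes were at level. Their summed signal was 2063 with heme and 3183 with vehicle in the labelled knockout, and 2389 with heme and 3595 with vehicle in wild type.

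Few of these differences were large. At 2-fold, 4 of 17 sterol enzymes were lower in the labelled knockout, against 0.452% of genes at level, and 0 of 17 in wild type, against 0.9%. At 1.5-fold, 9 of 17 were lower in the labelled knockout, against 3.07% of genes at level, and 8 of 17 in wild type, against 4.74%. None of the 28 members at level was 1.5-fold higher in the labelled knockout, where 5.03% of genes were, or in wild type, where 4.99% were. At 2-fold higher the shares of genes were 1.2% and 1.17%.

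The 2 heme responses come from separate pairs of arrays, so they can be set side by side. Of the 17 sterol enzymes, 15 were lower with heme in both, all but Mvk and Ebp, against 29.6% of the 10460 genes at level in both comparisons. Both heme arrays lay below both vehicle arrays at 13 of 17, against 20% of these genes. The 6 enzymes lower by 1.5-fold or more in both were Hmgcs1, Idi1, Sqle, Cyp51, Msmo1 and Dhcr7, against 1.05% of genes. Across the 28 members at level in both comparisons the responses correlated with a Pearson's r of 0.45 and a Spearman's rho of 0.42, beside 0.46 and 0.34 across all genes. These are correlations across genes, which are not replicates, and no p is given. Since the members were chosen with earlier results of these data known, the shares in this paragraph are descriptions as well.

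**Figure D1:**
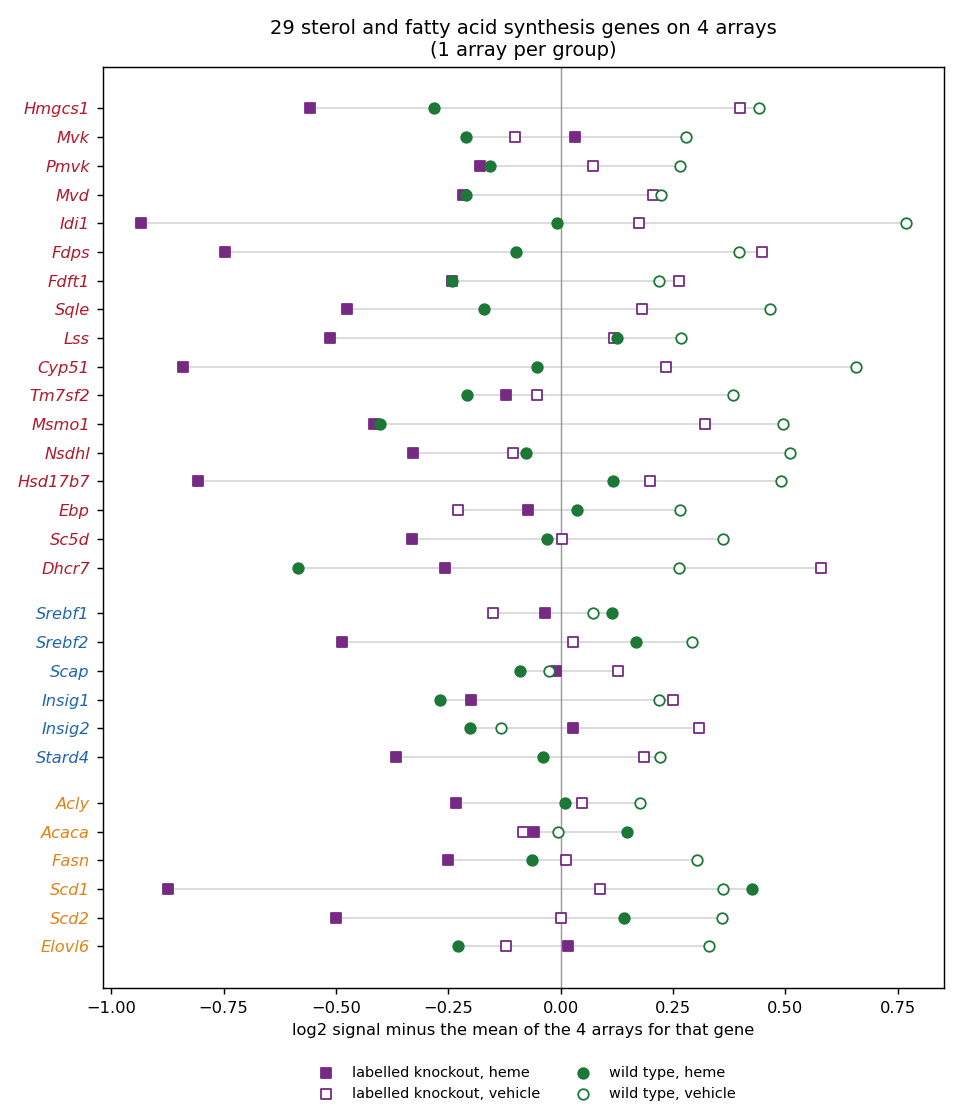
Log2 signal of each of the 29 measured members on the 4 arrays, as the difference from that gene's mean over the arrays; squares are labelled knockout, circles wild type, filled symbols heme and open symbols vehicle, and gene names are coloured by role (red sterol enzymes, blue regulators and sterol carrier, orange fatty acid enzymes). At 13 of 17 sterol enzymes both filled symbols lie left of both open ones.

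Along the mevalonate part of the pathway, the responses were uneven. Hmgcs1, which makes HMG-CoA, read 203 with heme and 393 with vehicle in the labelled knockout, and 245 with heme and 405 with vehicle in wild type. It was 1.94-fold lower with heme in the labelled knockout and 1.65-fold lower in wild type, and the vehicle arrays of the genotypes were within 1.03-fold of each other. Idi1, which isomerises isopentenyl diphosphate, read 44.5 and 96.0 in labelled knockout heme and vehicle, and 84.6 and 145 in wild-type heme and vehicle. Both of its probe sets were lower with heme in both genotypes: the one not used had log2 differences of -0.98 in the labelled knockout and -0.76 in wild type, beside -1.11 and -0.78 for the one used.

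Fdps, which makes farnesyl diphosphate, had the lowest response of the 29 members in the labelled knockout. It read 74.0 with heme and 169 with vehicle there, 2.29-fold lower, and 116 with heme and 163 with vehicle in wild type, 1.41-fold lower. The labelled knockout heme array stood below the 3 others, which lay between 116 and 169. The kinases and the decarboxylase between Hmgcs1 and Idi1 differed less. Mvd, the decarboxylase, read 141 and 189 in labelled knockout heme and vehicle, and 142 and 191 in wild-type heme and vehicle, nearly the same pair of values in both genotypes. Pmvk, the phosphomevalonate kinase, read 50.7 and 60.4 in labelled knockout heme and vehicle, and 51.5 and 69.1 in wild-type heme and vehicle. At Mvd and Pmvk both heme arrays lay below both vehicle arrays. Mvk, mevalonate kinase, read 47.9 and 43.6 in labelled knockout heme and vehicle, and 40.5 and 56.8 in wild-type heme and vehicle, so its log2 difference was 0.13 in the labelled knockout and -0.49 in wild type.

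The steps through squalene to lanosterol were lower with heme in both genotypes. Sqle, squalene epoxidase, a rate-controlling oxygen-dependent step, read 158 and 249 in labelled knockout heme and vehicle, and 195 and 304 in wild-type heme and vehicle, 1.58-fold and 1.56-fold lower with heme. Fdft1, squalene synthase, read 339 and 480.4 in labelled knockout heme and vehicle, and 339 and 466 in wild-type heme and vehicle. At both genes the heme arrays lay below the vehicle arrays, and at Fdft1 the genotypes hardly differed. The less bright probe set of Fdft1 had log2 differences of -0.51 in the labelled knockout and -0.74 in wild type. Lss, lanosterol synthase, read 35.6 and 55.2 in labelled knockout heme and vehicle, against 55.4 and 61.2 in wild-type heme and vehicle, so only the labelled knockout heme array stood apart.

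After lanosterol, 4 of 8 enzymes were 1.5-fold lower with heme in the labelled knockout, against 3.07% of genes at level. In wild type 5 of 8 were, against 4.74%. Cyp51, the lanosterol demethylase, itself a heme-containing cytochrome P450, read 104 and 219 in labelled knockout heme and vehicle, and 179 and 293 in wild-type heme and vehicle. It was 2.11-fold lower with heme in the labelled knockout and 1.63-fold lower in wild type. Msmo1, the methylsterol oxidase that acts after it, read 260.1 and 434 in labelled knockout heme and vehicle, and 263 and 489 in wild-type heme and vehicle, and it was the lowest of the members in wild type (log2 -0.90, percentile 1.24 of genes at level). Dhcr7, which carries out the last reduction to cholesterol, read 129 and 230.5 in labelled knockout heme and vehicle, and 103 and 185 in wild-type heme and vehicle, with log2 differences of -0.84 and -0.85. Hsd17b7, a sterol ketone reductase, read 41.4 and 83.1 in labelled knockout heme and vehicle, 2.01-fold lower, and 78.5 and 102 in wild-type heme and vehicle, 1.30-fold lower. At Cyp51 and Hsd17b7, as at Fdps and Lss, the labelled knockout heme array was the lowest of the 4. It was so at 13 of the 17 sterol enzymes, against 22.3% of genes at level in both heme comparisons.

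The other enzymes of this stretch differed less or in 1 genotype. Nsdhl, a sterol dehydrogenase, and Tm7sf2, a sterol reductase, had log2 differences with heme of -0.22 and -0.07 in the labelled knockout, and both of -0.59 in wild type. At both genes the wild-type vehicle array was the brightest (178 for Nsdhl, against 99.5 to 118 on the 3 other arrays, and 73.5 for Tm7sf2, against 48.7 to 54.2). Sc5d, a sterol desaturase, read 153 and 193 in labelled knockout heme and vehicle, and 189 and 247 in wild-type heme and vehicle, with log2 differences of -0.33 and -0.39. Ebp, a sterol isomerase, read 131 and 117 in labelled knockout heme and vehicle, and 141 and 165 in wild-type heme and vehicle, with log2 differences of 0.16 and -0.23.

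**Figure D2:**
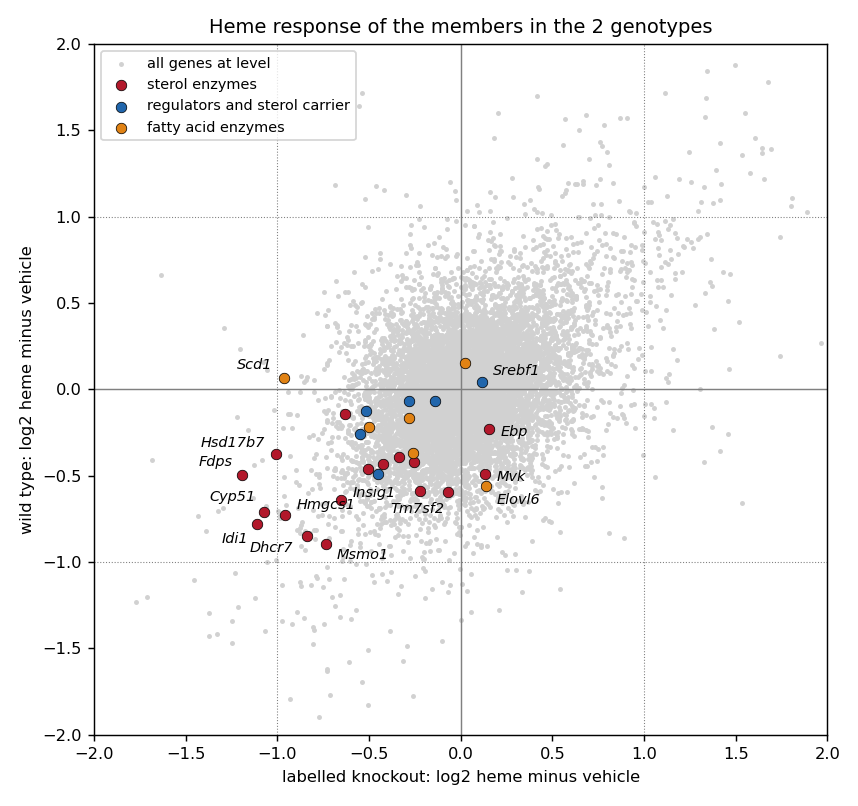
Log2 heme minus vehicle in the labelled knockout (horizontal) and in wild type (vertical) for the members, coloured by role, over 10460 genes at level in both comparisons (grey), of which 22 lie outside the axes; Elovl6, which is not at level, is shown as well, and dotted lines mark 2-fold. Of the 17 sterol enzymes 15 lie at the lower left, below 0 on both axes, and Scd1 lies at -0.96 and 0.07.

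Among the regulators, a group of 6 that here includes the sterol carrier Stard4, the median log2 difference with heme was -0.37 in the labelled knockout and -0.10 in wild type. Stard4 had the lowest difference of the 6 in the labelled knockout (-0.55). In either genotype 0 of 6 reached 1.5-fold. Of genes at level, 3.07% were 1.5-fold lower and 5.03% higher in the labelled knockout. In wild type 4.74% were lower and 4.99% higher. Insig1, the Scap-retaining protein that is itself an SREBP target, was lower with heme in both genotypes: it read 363 and 496 in labelled knockout heme and vehicle, and 346 and 485 in wild-type heme and vehicle, with log2 differences of -0.45 and -0.49. Insig2, its relative, read 112 and 136 in labelled knockout heme and vehicle, and 95.3 and 99.97 in wild-type heme and vehicle. At Insig1 the heme arrays lay below both vehicle arrays, and at Insig2 the groups of heme and vehicle arrays overlapped.

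Srebf2 read 153 and 219 in labelled knockout heme and vehicle, against 241 and 263 in wild-type heme and vehicle, a log2 difference with heme of -0.52 in the labelled knockout and -0.12 in wild type. Srebf1 differed little, with 114 and 105 in labelled knockout heme and vehicle, and 126 and 122 in wild-type heme and vehicle, and Scap lay between 106 and 123 on all 4 arrays. The Srebf1 signal covers its transcript forms together, and protein cleavage is not measured by these arrays. Stard4, a carrier of cholesterol between membranes, read 74.3 and 109 in labelled knockout heme and vehicle, and 93.2 and 112 in wild-type heme and vehicle, so both heme arrays lay below both vehicle arrays.

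Fatty acid enzymes had a median log2 difference with heme of -0.27 in the labelled knockout and -0.19 in wild type. In the labelled knockout 1 of 5 at level, Scd1, was 1.5-fold lower, against 3.07% of genes at level. In wild type 0 of 5 were, against 4.74%. Acly, the ATP citrate lyase that supplies acetyl-CoA to both pathways, read 234 and 285 in labelled knockout heme and vehicle, and 277 and 312 in wild-type heme and vehicle. Fasn, fatty acid synthase, read 66.3 and 79.4 in labelled knockout heme and vehicle, and 75.4 and 97.3 in wild-type heme and vehicle. At both the heme arrays lay below the vehicle arrays by 1.12-fold to 1.29-fold within a genotype. Acaca, the acetyl-CoA carboxylase, was not lower with heme: its log2 difference was 0.03 in the labelled knockout and 0.15 in wild type, and 0.09 and 0.25 at its other probe set.

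Of the desaturases, Scd1 was lower with heme in the labelled knockout only, and Scd2 was lower with heme in both genotypes. Scd1, which makes monounsaturated fatty acids, read 118 and 231 in labelled knockout heme and vehicle, 1.95-fold lower with heme, and 292 and 279 in wild-type heme and vehicle. Its response in the labelled knockout was 2.04-fold below that in wild type, the one member past 2-fold in the difference of responses, where 0.879% of genes at level were 2-fold lower. Scd2, its relative, read 560.4 and 792 in labelled knockout heme and vehicle, and 874 and 1016 in wild-type heme and vehicle, so the labelled knockout heme array was again the lowest. Scd1 and Scd2 are close in sequence, and how specific their probes are was not tested. Elovl6, an elongase, read between 19.9 and 29.3 on all 4 arrays and did not reach the median of all values, so it enters no count past a fold, though it does enter the medians and the counts over 29 members.

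**Figure D3:**
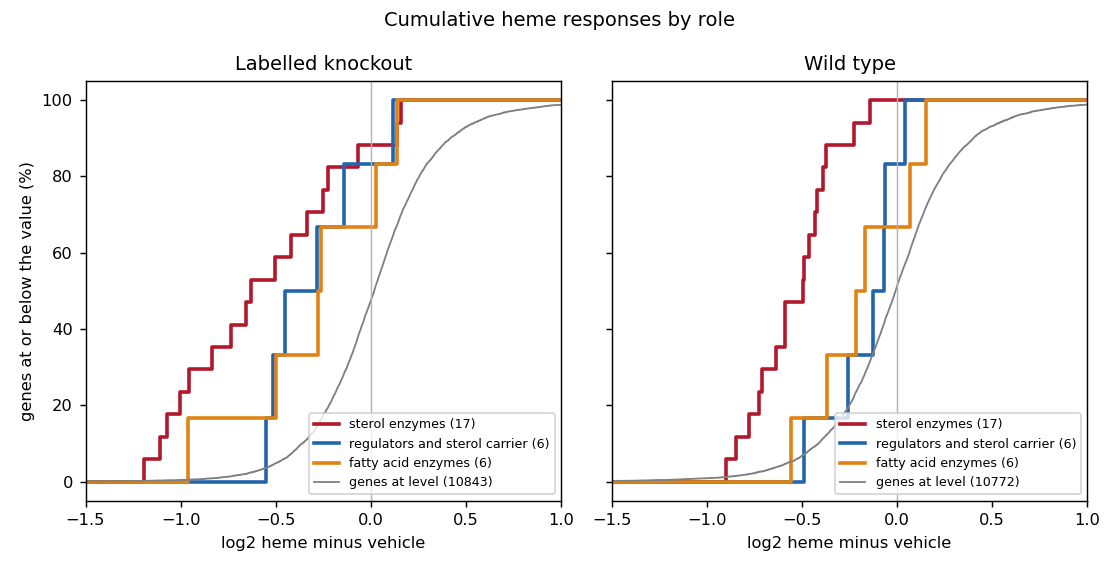
Cumulative share of genes (percent) against log2 heme minus vehicle in the labelled knockout (left) and in wild type (right), for 17 sterol enzymes, 6 regulators and 6 fatty acid enzymes and, in grey, for all genes at level. The sterol enzymes lie left of the grey curve in both panels, with medians of -0.63 and -0.49.

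The comparison of labelled knockout with wild type sets the genotypes side by side under the same treatment. With 1 array per group, a difference of genotype cannot be told apart from a difference between cultures. In vehicle 23 of 29 members were lower in the labelled knockout (78.6% of the 28 at level), where 52.5% of genes at level were. The median log2 difference was -0.29 for sterol enzymes, -0.00 for regulators and -0.28 for fatty acid enzymes, against 0.01 over all genes. No member was 2-fold higher or lower, where 0.525% and 1.14% of genes at level were. At 1.5-fold, 2 of 28 members at level were lower (4.32% of genes) and 0 higher (3.25%). These were Nsdhl (116 in labelled knockout vehicle, against 178 in wild-type vehicle) and Idi1 (96.0, against 145). Insig2 (136, against 99.97) and Dhcr7 (230.5, against 185) were the members most above wild type, at 1.36-fold and 1.25-fold. The wild-type vehicle array was the highest of the 4 at 19 of the 28 members, labelled knockout vehicle at 6, wild-type heme at 3 and labelled knockout heme at 0, where each was so at 27.1%, 23%, 23.7% and 26.1% of genes. The wild-type vehicle array serves both this comparison and the heme response in wild type, so these are not independent. The heme response in the labelled knockout does not use it.

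With heme in both cultures, 8 of 28 members at level were 1.5-fold lower in the labelled knockout, against 3.43% of genes at level, and 0 were 1.5-fold higher, against 3.39%. Of any size, 22 of 29 were lower (78.6% of the 28 at level), against 47.8% of genes at level. Of the 8, 1 was 2-fold lower, Scd1 (118 in labelled knockout heme, against 292 in wild-type heme, 2.46-fold), where 0.973% of genes were, and 0 were 2-fold higher (0.528% of genes). The others were Idi1 (44.5, against 84.6, 1.90-fold), Hsd17b7 (41.4, against 78.5, 1.90-fold), Cyp51 (104, against 179, 1.73-fold), Srebf2 (153, against 241), Fdps (74.0, against 116), Scd2 (560.4, against 874) and Lss (35.6, against 55.4). The median log2 difference was -0.25 for sterol enzymes, -0.04 for regulators and -0.22 for fatty acid enzymes. The labelled knockout heme array was the lowest of the 4 at 19 of 28 members, wild-type heme at 6, labelled knockout vehicle at 3 and wild-type vehicle at 0, where each was so at 22.3%, 26.2%, 27.7% and 23.7% of genes. It serves both this comparison and the heme response in the labelled knockout. The sterol genes differed among themselves: Hmgcs1, Mvd, Fdft1, Msmo1 and Insig1 were within 1.21-fold between genotypes with heme, while Idi1, Cyp51 and Hsd17b7 were 1.73-fold to 1.90-fold lower in the labelled knockout.

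**Figure D4:**
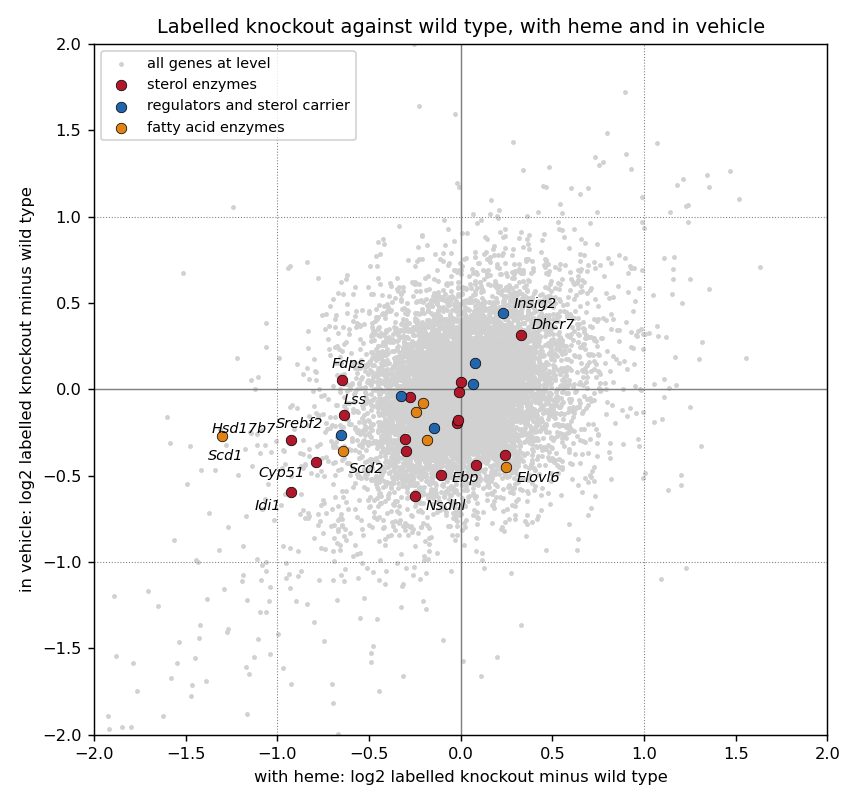
Log2 labelled knockout minus wild type with heme (horizontal) and in vehicle (vertical) for the members, coloured by role, over 10494 genes at level in both comparisons (grey), of which 19 lie outside the axes; dotted lines mark 2-fold. Scd1 lies farthest left, at -1.30 with heme and -0.27 in vehicle.

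The difference between the 2 heme responses, labelled knockout minus wild type, had a median of 0.01 on the log2 scale for sterol enzymes, -0.14 for regulators and -0.12 for fatty acid enzymes, against -0.00 over all genes. It was below 0 at 16 of 29 members (57.1% of the 28 at level), against 45.5% of genes at level. By this measure 3 of 28 members at level had a response at least 1.5-fold lower in the labelled knockout (Scd1, Fdps and Hsd17b7), against 5.15% of genes, and 1 had a response 1.5-fold higher (Mvk), against 6.27%. None was 2-fold higher, against 1.17%. With 1 array in each group these differences were not tested. The robust SD over genes at level was 0.32 in this comparison.

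Other genes of these pathways, from lists outside the members, had medians nearer to 0 than the sterol enzymes in both genotypes. Of 14 other genes of sterol synthesis, uptake and SREBP processing, 1 of 13 at level was 1.5-fold lower with heme in the labelled knockout. In wild type 2 of 14 were. The shares of genes at level were 3.07% in the labelled knockout and 4.74% in wild type. The list medians were 0.10 in the labelled knockout and -0.11 in wild type. A further 10 genes of that list were not analysed here. The wild-type ones were Tmem97, a sterol-responsive membrane protein (135 and 124 in labelled knockout heme and vehicle, against 133 and 232 in wild-type heme and vehicle), and Mbtps1, the first SREBP protease (87.0 and 60.2 in labelled knockout heme and vehicle, against 52.9 and 83.7 in wild-type heme and vehicle). The one in the labelled knockout was Aacs, acetoacetyl-CoA synthetase (44.5 with heme and 66.8 with vehicle). Of 28 other lipid synthesis genes, 21 at level in each comparison, 0 were 1.5-fold lower in either genotype (3.07% and 4.74% of genes). In wild type 4 were 1.5-fold higher, against 4.99% of genes at level: Hacd2, Acss2, Dgat1 and Elovl7. Dgat1, which makes triglyceride, read 283 and 196 in labelled knockout heme and vehicle, and 201 and 132 in wild-type heme and vehicle.

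The list of LXR, oxysterol and sterol efflux genes, which holds a sterol-activated receptor with its targets and the enzymes that make oxysterols, had medians of -0.23 in the labelled knockout and -0.19 in wild type. In each genotype 3 of the 9 at level had 1.5-fold lower signals with heme. The shares of genes at level were 3.07% in the labelled knockout and 4.74% in wild type. The 3 were Apoe, Abcg1 and Ch25h in the labelled knockout, and Apoe, Pltp and Abcg1 in wild type. Abcg1, a cholesterol exporter, read 557 and 942 in labelled knockout heme and vehicle, and 572 and 947 in wild-type heme and vehicle, 1.69-fold and 1.66-fold lower with heme. Apoe, the lipoprotein component that macrophages secrete, read 122 and 219.5 in labelled knockout heme and vehicle, and 143 and 358 in wild-type heme and vehicle. Pltp, the phospholipid transfer protein, read 613 and 880.2 in labelled knockout heme and vehicle, and 394 and 705 in wild-type heme and vehicle. At Abcg1, Apoe and Pltp the heme arrays lay below both vehicle arrays. The list was not uniform: 7 of the 9 at level were lower with heme in both genotypes, against 29.6% of genes. Abca1, of the same list, was higher with heme in both. It read 74.6 and 57.1 in labelled knockout heme and vehicle, and 119 and 106 in wild-type heme and vehicle, with log2 differences of 0.39 and 0.17. Ch25h, whose product is an oxysterol that suppresses SREBP processing, was lower with heme in both genotypes. It read 86.6 and 130.1 in labelled knockout heme and vehicle, and 164 and 184 in wild-type heme and vehicle. Oxysterols are not measured by these arrays, and the part of oxysterols in the sterol enzyme differences was not tested. Of fatty acid oxidation genes, Hadh, a dehydrogenase of that path, was higher with heme by 1.07 on the log2 scale in the labelled knockout (306 and 145) and by 0.96 in wild type (288 and 149), and the list medians were 0.13 and -0.11. In each genotype 2 of 16 genes of that list at level were 1.5-fold higher, Hadh and Acadl. The shares of genes at level were 5.03% in the labelled knockout and 4.99% in wild type. In the labelled knockout 0 of 16 were 1.5-fold lower, against 3.07%, and in wild type 1 of 16 was, against 4.74%. That one was Acaa2, a thiolase of the path, with 161 and 184 in labelled knockout heme and vehicle, against 105 and 218 in wild-type heme and vehicle (log2 -1.05 in wild type).

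Markers of cell type and growth moved with some of these differences. The arrays hold bulk RNA, in which fewer cells of a type and less RNA per cell cannot be told apart. The 13 neutrophil markers summed to 11802 and 9320.2 in labelled knockout heme and vehicle, and to 14476 and 11113 in wild-type heme and vehicle. S100a8 and S100a9 were the largest parts of these sums on each array. With heme 0 of 12 at level were 2-fold higher in the labelled knockout, against 1.2% of genes at level. In wild type 4 of 11 were, against 1.17%. The 11 macrophage markers summed to 19646 and 19697 in labelled knockout heme and vehicle, and to 18915 and 20722 in wild-type heme and vehicle, sums of which Lyz2 was the largest part on each array. With heme 0 of 11 were 2-fold lower in the labelled knockout, against 0.452% of genes at level, and 4 of 11 in wild type, against 0.9%. The same 4, Fcgr1, C1qa, C1qb and C1qc, were 2-fold lower in the labelled knockout than in wild type in vehicle, against 1.14% of genes. With heme 1 of them, C1qc, was, against 0.973%. C1qc read 103 and 170.1 in labelled knockout heme and vehicle, against 295 and 911 in wild-type heme and vehicle. The 13 proliferation genes summed to 1870 and 2468 in labelled knockout heme and vehicle, and to 1860 and 2185 in wild-type heme and vehicle. Pcna was the largest part of these sums on each array (753 and 1109, and 728 and 1047). The median log2 difference of the 13 with heme was -0.37 in the labelled knockout and -0.04 in wild type. With heme 11 were lower and 2 higher in the labelled knockout, where 47.5% of genes at level were lower. In wild type 8 were lower and 5 higher, where 51.3% of genes at level were lower. The 13 dendritic cell and antigen presentation markers summed to 3211 and 3892 in labelled knockout heme and vehicle, against 10294 and 12857 in wild-type heme and vehicle, and their median difference, labelled knockout minus wild type, was -1.42 with heme and -1.45 in vehicle. The 11 fibroblast and adipocyte markers summed to 1367 and 1980.5 in labelled knockout heme and vehicle, and to 1373 and 1638 in wild-type heme and vehicle, most of it from Fabp4, which macrophages also express (1134 and 1734, and 1137 and 1406). No marker had a signal of 0, since RMA gives every probe set a positive value, and the part of these markers in the results was not tested.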

How the data were processed

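Gene expression was measured in 4 cultures, 1 array each, with biotinylated cRNA from the Ovation PicoSL kit (NuGEN), per the labels' protocols. The deposited values are intensity on a linear scale after RMA, which the authors ran, per the submitters' processing notes (no version is given). The series' design text speaks of progenitors sorted from chimeras and of a different extraction kit. Since this conflicts with the labels of the samples, the labels were used. No detection calls came with the values.

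Values were taken to log2 with nothing added. Of 35556 probe sets, the array annotation listed 21789 with a single gene symbol and 1621 with several, and did not list 12146. Symbols were updated through the Entrez number (21698 found in RefSeq, GRCm38.p6). Of several probe sets of a gene (3 members), the one with the highest mean signal was used, which gave 19938 genes. A gene counted as at level when the brighter array of the pair (or the brightest of the 4) was at or above the overall median, and as higher or lower at 2-fold or 1.5-fold. All members are named. Genes named from each other list are at level and rank among the 4 largest differences of that list in a comparison. Markers are named for their list's spread. The members and lists were chosen with earlier results of these data known. No p-value was computed, since groups hold 1 array, and their number limits the precision. The calculation was tested on simulated data. Alternatives are described in the closing section. Promoter sequences came from RefSeq. Calculations ran in Python 3.11.15 with pandas 2.3.3, numpy 2.4.6 and statsmodels 0.14.6, and figures were drawn with matplotlib 3.10.9.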

Additional observations from a re-analysis of the deposited data

Results flagged for a closer look

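At 4 members the heme response had opposite signs in the 2 genotypes, which is what brought them here. The difference of responses, labelled knockout minus wild type, was -1.03 on the log2 scale for Scd1, 0.70 for Elovl6, 0.62 for Mvk and 0.39 for Ebp. These differences were not tested, since each group held 1 array. For 3 of them 1 of the 2 responses was within the robust SD of 0.28: 0.07 for Scd1 in wild type, and 0.14 for Elovl6 and 0.13 for Mvk in the labelled knockout. For Ebp both were, 0.16 in the labelled knockout and -0.23 in wild type. Elovl6 stayed below the median of all values on every array.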

How the results depend on the processing

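Adding 32 to each signal, quantile normalization applied again, lowess centring on level and averaging the probe sets of each gene gave 60 medians, of which 56 moved by less than the robust SD over the square root of the number of genes, a yardstick used in place of a replicate SD. The 4 others kept their sign: with 32 added, the sterol enzyme median was -0.47 for heme in the labelled knockout, -0.40 for heme in wild type and -0.22 for labelled knockout minus wild type in vehicle. With probe sets averaged it was -0.59 for heme in wild type. In 6 of the 60 the sign differed from the main value. These belonged to medians near 0, whose sign is not stable. The regulator median for labelled knockout minus wild type in vehicle ran from -0.003 to 0.041. The sterol enzyme median for the difference of responses ran from -0.062 to 0.011. Over all of these alternatives the sterol enzyme median with heme lay between -0.64 and -0.47 in the labelled knockout and between -0.59 and -0.40 in wild type. No value past 2-fold changed sign.

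Counts of members 2-fold lower depended on the rule. With heme in the labelled knockout 4 became 10 at 1.5-fold, 0 at 3-fold, 2 with a filter at the 75th percentile, 0 with 32 added, 6 with quantile normalization again (Hmgcs1 and Scd1 added) and 5 with lowess centring (Scd1 added). With heme in wild type 0 became 8 at 1.5-fold. For the knockout difference 0 became 2 at 1.5-fold in vehicle, and 1 became 8 at 1.5-fold and 0 at 3-fold with heme. For the difference of responses 1 became 3 at 1.5-fold, 0 at 3-fold and 0 with 32 added, and members with a 2-fold higher response went up to 1 at 1.5-fold. The looser sterol element, chosen after seeing the data, stood in 9 member promoters where the stricter one stood in 1. The 32 added shrinks differences of dim genes by construction; the causes of the other changes were not tested. No paired analysis was possible because each group has 1 array, so the groups share only 1 replicate number. An additive fit of genotype and heme over the 4 arrays was not run. A low signal's distance from background is unknown.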
